A study of Gallus gallus with 6 samples.

Results

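The proteasome is the large protease that degrades proteins tagged with ubiquitin, and its subunit genes were followed through the parts and phases of the chicken feather follicle. Records were taken where the description named a proteasome subunit or activator, or where the symbol began with PSMA, PSMB, PSMC, PSMD or PSME. The rule found 32 of 10964 transcript records: 7 core alpha subunits, 5 core beta subunits, 5 cap ATPases, 12 cap non-ATPases (PSMD), 2 activators (PSME3 and PSME4) and the inhibitor PSMF1. The PSMD group includes PSMD5, PSMD9 and PSMD10, which are assembly chaperones of the cap and are counted in all cap sums and shares. PSMB4, PSMD11 and PSMD13 stood in the tables under LOC numbers and were named through their gene identifiers in a RefSeq gene table. The rule matched no record of PSMB5, PSMB6, PSMC4, PSMD4 or PSMD8, which were not analysed here.

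The barrel-shaped core holds rings of alpha subunits, which gate the entrance, and rings of beta subunits, some of which cut peptide bonds. A cap binds ubiquitin, removes it, and uses a ring of ATPases to unfold the substrate and feed it into the core. Other activators such as PSME3, which encodes a nuclear regulator, open the core without ubiquitin recognition. In mammals, cells that face a shortage of proteasome raise many of these genes together through the transcription factor NFE2L1.

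Total RNA was sequenced from 6 libraries, 1 for each group. 3 were from the growth phase: the dermal papilla, the mesenchymal cell cluster at the base of the follicle, the feather epithelium, and the mesenchymal pulp inside the growing feather. Another was the dermal papilla at rest, and the last 2 were feather follicles at 2 and 4 days after wounding, in the regeneration phase. The labels give no strain, age or number of birds, and no group had a replicate, so no difference below has a replicate check and no test was made. All intervals are exact 95% intervals for counting error alone. In such bulk tissue, fewer cells of a type and less RNA per cell cannot be told apart.

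The listed counts summed to 1375518 to 1499592 in the papilla and regeneration libraries, 2428052 in the epithelium and 2364748 in the pulp. The epithelium and pulp thus were the deeper libraries, and their tables also had another text layout. The labelled tissues were checked against marker lists, each summed in RPM (reads scaled to a common library total, after TMM scaling, which uses a trimmed mean of log ratios between libraries). The 9 epithelial markers found summed to 2186 (epithelium), 111 (pulp) and 729 to 1538 elsewhere. KRT14 alone gave 616 of the 729 in the growth papilla. The 8 mesenchymal markers summed to 117 in the epithelium and 4806 to 6910 elsewhere, with COL1A1 and PDGFRA unlisted in the epithelium. Smooth muscle markers summed to 22904 in the growth papilla, 7032 in the resting papilla and 199 to 2259 in the other 4 libraries. Both papilla libraries thus contained epithelial and smooth muscle transcripts.

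Proteasome reads numbered 15509 (epithelium), 18230 (pulp), 8193 (growth papilla), 8949 (resting papilla), 9017 (day 2) and 11075 (day 4). Of the 32 records, 28 had at least 20 reads in some library and 27 had at least 20 in all of them. The 4 that did not reach 20 were PSMD2, PSMD11, PSMD14 and PSME4. PSMD14, the cap enzyme that cuts ubiquitin off the substrate, had 2 reads in the growth papilla and 2 on day 2 and was unlisted elsewhere. PSMD2, a scaffold of the cap, had 8 reads in the growth papilla and at most 3 in any other library. PSMD11, a lid subunit, had 2 reads in the epithelium alone. PSME4, a large nuclear activator, had 2 to 10 reads. PSMB7, which carries one of the cutting sites, had 20 reads in the epithelium, its highest count, and 5 to 14 elsewhere, with 12 in the pulp. All other core records had at least 76 reads in each library. PSMB7, PSMD2, PSMD11 and PSMD14 are subunits of the standard proteasome, so their near-empty records are not read as levels of the genes. PSMB7 reached 20 reads through the epithelium alone, where it was highest, and several counts that include it are also given without it. The tables list no count under 2, so an unlisted record may hold 0 or 1 reads.

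The summed proteasome level, in TMM-scaled RPM, was 3718 (epithelium), 3136 (pulp), 2812 (day 4), 2459 (resting papilla), 2454 (day 2) and 2411 (growth papilla). The first 3 steps down this order were larger than counting error: the epithelium lay 1.19-fold (1.16 to 1.21) above the pulp, the pulp 1.12-fold (1.09 to 1.14) above day 4, and day 4 1.14-fold (1.11 to 1.18) above the resting papilla. The steps from the resting papilla to day 2 and from day 2 to the growth papilla lay within counting error. The place of the epithelium depended on scaling. Its 10 most abundant records took 28.6% of listed counts, against 9.56% to 16.1% in the other libraries, and its TMM factor was 0.688 against 0.997 to 1.17. On library totals alone the order became day 4 at 3285, pulp at 3208, day 2 at 2758, resting papilla at 2671, epithelium at 2557 and growth papilla at 2403. The growth papilla was lowest and the pulp lay above the resting papilla and day 2 under both scalings.

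**Figure D1:**
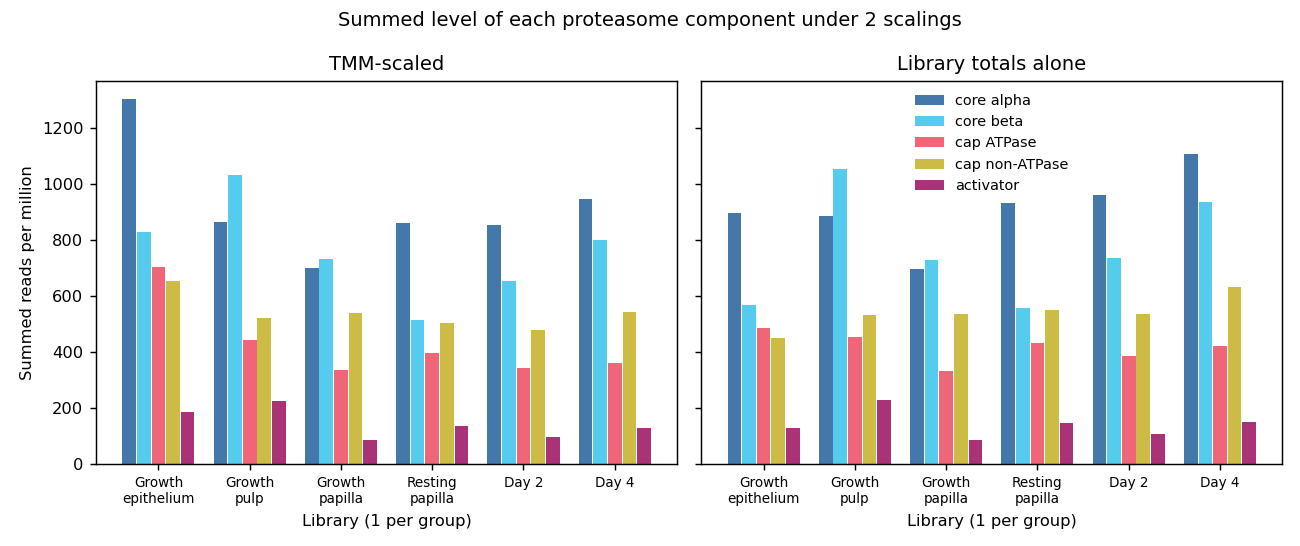
Summed RPM (y axis, from 0) of core alpha, core beta, cap ATPase, cap non-ATPase and activator records in each of the 6 libraries, scaled by TMM on the left and by library totals alone on the right. Each bar is 1 library; core alpha stands at 1303 in the epithelium on the left and at 896 on the right, while core beta is highest in the pulp in both panels.

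Of the 28 members that passed 20 reads in some library, 18 were highest in the epithelium after TMM scaling, against 28.4% of 7205 records, and 11 were lowest in the growth papilla, against 17.7%. Without PSMB7 the counts were 17 and 11 of 27. On library totals alone 4 of the 28 were highest in the epithelium, against 12.9% of records, and again 11 were lowest in the growth papilla, against 17.6%. The epithelium and pulp both lay above each of the other 4 libraries for PSMA6, PSMB3, PSMC3, PSMC5, PSMD1, PSMD13 and PSME3, which is 7 of 28 members against 12.3% of records, and for PSMC3 and PSMC5 on library totals alone, against 4.94%. Across the 6 libraries the highest level of a member was 1.49 times (PSMD12) to 3.65 times (PSMA7) its lowest, among the 28. PSMA7 had the widest range of these, and its highest library, the epithelium, is also the one whose level depends most on scaling.

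**Figure D2:**
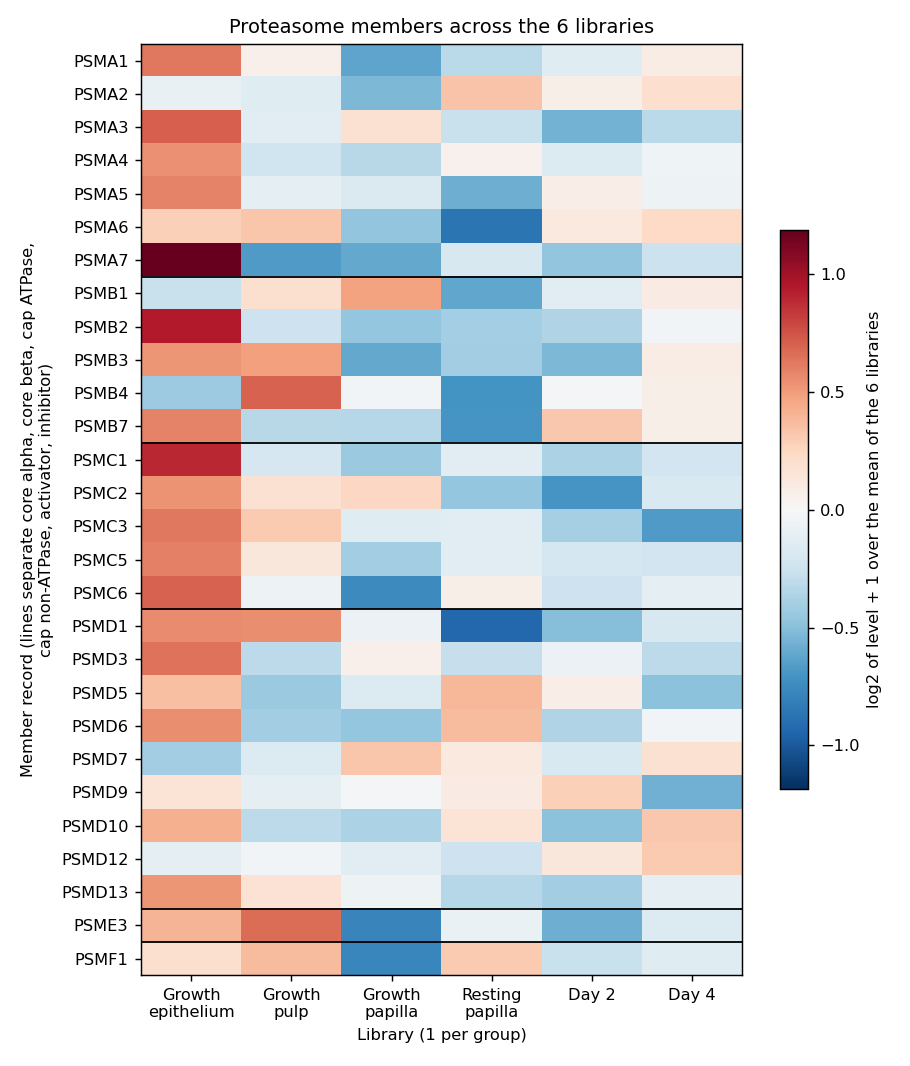
Each row is 1 of the 28 members with at least 20 reads in some library, each column 1 library, and the colour gives the log2 of the TMM-scaled level plus 1 over the mean of the 6 libraries. Most rows are red in the epithelium, where 18 of 28 members were highest (17 of 27 without PSMB7). PSMB1, PSMB4 and PSMD7 are blue there, as are, more faintly, PSMA2 and PSMD12. The PSMB7 row rests on 5 to 20 reads a library.

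The growth papilla was first set against the growth epithelium, to see how the signalling mesenchyme and the tissue that forms the feather differ in proteasome transcripts. Most members had lower levels in papilla: 9 of 28 were lower by 2-fold or more, against 22.7% of the 6362 records tested, and 0 were 2-fold higher, against 25.0%. At 1.5-fold, 17 were lower (33.9% of records) and 2 higher (33.2%), or 16 and 2 of 27 without PSMB7. The members' median log2 ratio was -0.76, against -0.05 for all records. Summed reads were 1.54-fold (1.5 to 1.58) lower in the papilla. With library totals alone the median of all records moved to 0.45 and that of the members to -0.24, the split became 1 lower (13.5% of records) and 2 higher (35.1%) at 2-fold, 7 lower (20.5%) and 3 higher (46.2%) at 1.5-fold, and the summed difference shrank to 1.06-fold (1.04 to 1.09). The members' median lay 0.72 below that of all records with TMM and 0.69 below it on totals alone. Scaling shifts all records of a pair alike apart from the pseudocount, so this gap could hardly change and is no check on scaling. Direction was the same under the 4 scalings for 19 lower members, with PSMB7 among them, and for 3 higher members. It turned for PSMA2, PSMA3, PSMC2, PSMD5, PSMD9 and PSMD12. How many of all records kept or turned direction was not computed. The epithelial marker sum moved with this difference, at 729 in the papilla and 2186 in the epithelium, although KRT14 went the other way, at 616 and 479. Smooth muscle markers, at 22904 and 199, melanocyte markers, at 0 and 591, depth and table layout also differed. The part of any of these in the proteasome difference was not tested.

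PSMA7, PSMC6 and PSMB2 had the lowest ratios of papilla to epithelium. PSMA7, a core alpha subunit, measured 263 RPM (epithelium), 72.1 (pulp), 75.3 (growth papilla), 101 (resting papilla), 83.0 (day 2) and 96.5 (day 4). The epithelium alone stood apart, 3.49-fold (3.04 to 4.01) above the growth papilla, or 2.41-fold on library totals alone. PSMC6, an ATPase, measured 131 (epithelium), 77.1 (pulp), 47.1 (growth papilla), 84.4 (resting papilla), 67.8 (day 2) and 74.4 (day 4). Its epithelial level was 2.78-fold (2.33 to 3.34) that of the growth papilla, or 1.92-fold on library totals alone. On totals alone the epithelium, at 90.0, did not stand above the resting papilla, at 91.6. PSMB2, a structural core beta subunit, measured 131 in epithelium against 48.8 to 66.0 elsewhere, with 56.9 in pulp. It was 2.68-fold (2.25 to 3.21) lower in the growth papilla than in the epithelium, or 1.85-fold on library totals alone. On totals alone the epithelium stood at 90.0 and day 4 at 77.1. With TMM, PSMB2 levels outside the epithelium spread over a narrow range.

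All 5 ATPases had ratios below 1 with TMM, against 51.3% of records, and all but PSMC2 also on library totals alone. On totals alone the interval of PSMC3, at 0.843 (0.707 to 1.003), held 1. PSMC1, at 89.7 against 228, was 2.54-fold (2.23 to 2.89) lower. PSMC5, at 93.3 against 189, was 2.03-fold (1.78 to 2.32) lower. PSMC3 was 1.72-fold (1.44 to 2.05) lower and PSMC2 1.23-fold (1.0 to 1.51) lower, so the ring's members differed in the size of the ratio. By component, summed activator reads, nearly all of PSME3, were 2.21-fold (1.92 to 2.53) lower in the papilla, ATPases 2.11-fold (1.97 to 2.26) and core alpha 1.86-fold (1.77 to 1.95), and these 3 sums were also lower on library totals alone. The sums of core beta and of cap non-ATPases turned with scaling. Core beta was 1.13-fold (1.07 to 1.19) lower with TMM and 1.28-fold (1.22 to 1.35) higher on totals alone, and the cap non-ATPases were 1.22-fold (1.14 to 1.29) lower and 1.19-fold (1.12 to 1.27) higher. Among the latter, with TMM, the scaffold PSMD1 was 1.55-fold (1.34 to 1.81) lower, the lid subunit PSMD6 2.04-fold (1.62 to 2.57) lower, and the lid subunit PSMD12 was at 76.2 against 77.7.

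Against this trend, PSMB1, PSMB4 and PSMD7 were higher in the papilla than in the epithelium under all 4 scalings. PSMB1, a structural core beta subunit, measured 167 RPM (epithelium), 229 (pulp), 279.5 (growth papilla), 130.5 (resting papilla), 183 (day 2) and 214.5 (day 4). The growth papilla was highest under both scalings. The resting papilla was lowest with TMM, but on totals alone the epithelium was lowest, at 115 against 142 at rest. PSMB1 was 1.68-fold (1.52 to 1.85) higher in the growth papilla than in the epithelium, or 2.43-fold on totals alone. PSMD7, the partner of PSMD14 in the lid, measured 90.9 (epithelium), 108 (pulp), 151 (growth papilla), 131 (resting papilla), 106 (day 2) and 137 (day 4). It was lowest in the epithelium and 1.67-fold (1.46 to 1.91) higher in the growth papilla. PSMB4, the structural beta subunit at the contact of both beta rings, was 1.32-fold (1.20 to 1.46) higher. Relative to the summed reads of all other members, which needs no scaling between libraries, PSMB1 was 2.80-fold, PSMD7 2.68-fold and PSMB4 2.15-fold higher in the papilla. On the same measure PSMA7 stood at 0.424 times its epithelial value.

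**Figure D3:**
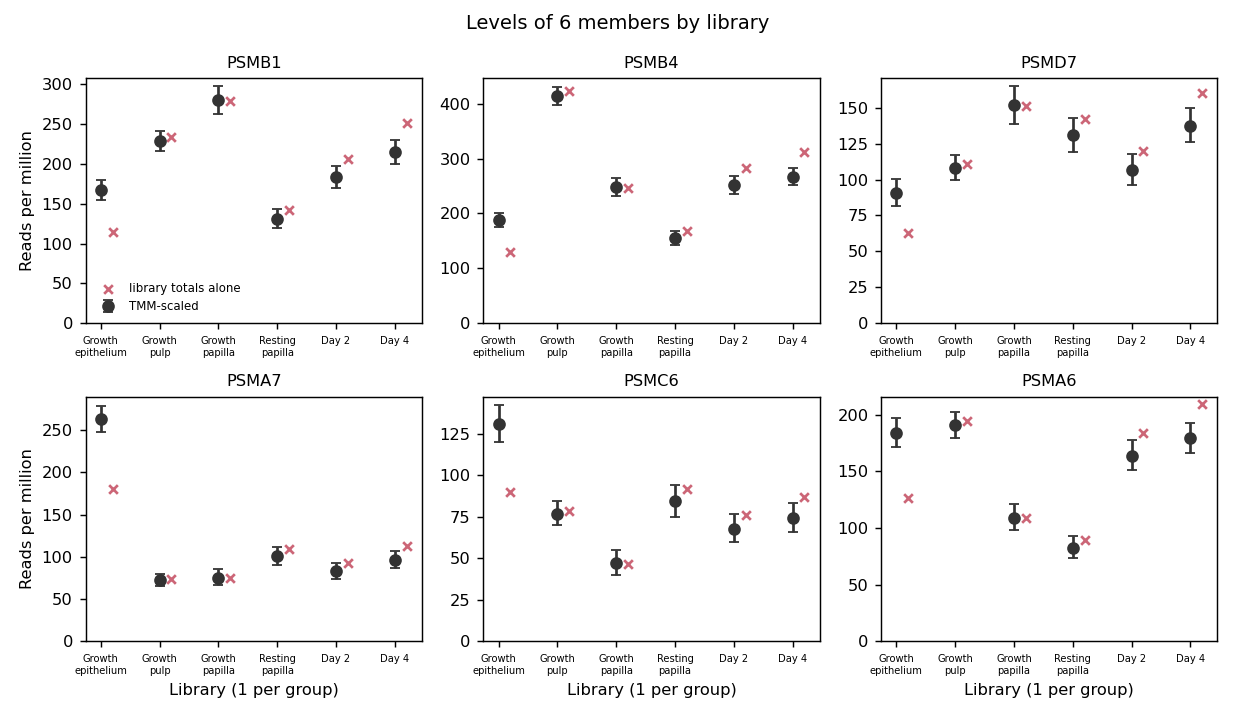
RPM (y axes, from 0) of PSMB1, PSMB4, PSMD7, PSMA7, PSMC6 and PSMA6 in each library, 1 library per group. Dots are TMM-scaled levels with exact 95% Poisson intervals for counting error, and crosses are levels on library totals alone; PSMA7 stands at 263 in the epithelium and at most 101 elsewhere, while PSMB1 is highest in the growth papilla.

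The growth papilla was then set against the growth pulp, the mesenchyme that lies above it. Most members lay within 1.5-fold: 3 of 27 were at least 2-fold lower in the papilla, against 19.1% of 6667 records, and 0 were higher, against 14.7%. At 1.5-fold, 8 were lower (30.9% of records) and 0 higher (24.6%). The median log2 ratio was -0.22 for members and -0.09 for all records, and summed reads were 1.30-fold (1.27 to 1.34) lower in the papilla. All 27 kept their direction under the 4 scalings, which moved ratios little in this pair. The log2 ratio of PSMA1, for example, lay between -0.73 and -0.66. The share of all records that kept their direction was not computed. Leukocyte markers were at 366 in the papilla and 1953 in the pulp, smooth muscle markers at 22904 and 639, epithelial markers at 729 and 111, and HBA1, the erythroid marker found, at 98.0 and 357. Their part in the difference was not tested.

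The 3 members past 2-fold were the activator PSME3, the inhibitor PSMF1 and the structural beta subunit PSMB3, all lower in the papilla. PSME3 measured 185 (epithelium), 223 (pulp), 81.2 (growth papilla), 133 (resting papilla), 93.6 (day 2) and 125 (day 4). It was highest in the pulp and lowest in the growth papilla, 2.74-fold (2.40 to 3.13) apart. PSMF1, which binds the core and inhibits it in vitro, measured 47.0 (epithelium), 53.3 (pulp), 23.5 (growth papilla), 51.1 (resting papilla), 34.0 (day 2) and 37.1 (day 4). The growth papilla was again lowest, 2.27-fold (1.77 to 2.93) below the pulp. PSMB3 measured 337 (epithelium), 329 (pulp), 154 (growth papilla), 176 (resting papilla), 162 (day 2) and 249 (day 4). It was 2.14-fold (1.94 to 2.36) lower in the growth papilla than in the pulp.

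PSMD7, at 1.40-fold (1.25 to 1.58), PSMD3, at 1.30-fold (1.11 to 1.52), and PSMA3, at 1.24-fold (1.09 to 1.42), were the members with the largest ratios in favour of the papilla over the pulp. PSMD3 is a lid subunit and PSMA3 a core alpha subunit. By component, summed core beta reads were 1.41-fold (1.34 to 1.48) lower in the papilla, ATPases 1.33-fold (1.24 to 1.43) and core alpha 1.23-fold (1.18 to 1.30) lower. The ratio for the cap non-ATPases, 1.03, had an interval that held 1 (0.972 to 1.09).

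Pulp and epithelium were the remaining pair of growing tissues. With TMM, 3 of 28 members were at least 2-fold lower in the pulp, against 20.4% of 6851 records, and 1 was higher, against 26.7%. At 1.5-fold, 12 were lower (30.3%) and 1 higher (35.9%), or 11 and 1 of 27 without PSMB7, and the median log2 ratio was -0.41 against 0.08 for all records. This direction rested on scaling. On library totals alone the member median was 0.16, that of all records 0.61, and the split at 1.5-fold became 2 lower (17.7% of records) and 7 higher (50.6%). Summed reads went from 1.19-fold (1.16 to 1.21) lower in the pulp to 1.25-fold (1.23 to 1.28) higher. The distance of the member median from that of all records was -0.49 with TMM and -0.45 on totals alone. Scaling could hardly change this distance either, since it shifts all records alike. Mesenchymal markers were at 6910 in the pulp and 117 in the epithelium, epithelial markers at 111 and 2186, leukocyte markers at 1953 and 23.7, and melanocyte markers at 14.4 and 591. Their part in the difference was not tested.

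PSMA7, at 3.65-fold (3.25 to 4.09), PSMB2, at 2.30-fold (2.00 to 2.64), and PSMC1, at 2.14-fold (1.93 to 2.37), were the members 2-fold lower in the pulp, and they stayed lower under all 4 scalings. PSMB4 was the member 2-fold higher. It measured 188 (epithelium), 414 (pulp), 248 (growth papilla), 155 (resting papilla), 252 (day 2) and 267 (day 4). The pulp was highest, 2.20-fold (2.03 to 2.39) above the epithelium. PSMB1, at 1.37-fold (1.25 to 1.51), and PSME3, at 1.20-fold (1.10 to 1.32), followed in the pulp's favour. The core beta genes went in different directions between pulp and epithelium, with PSMB4 and PSMB1 higher, PSMB2 lower and PSMB3 at a ratio of 0.977 (0.911 to 1.05).

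**Figure D4:**
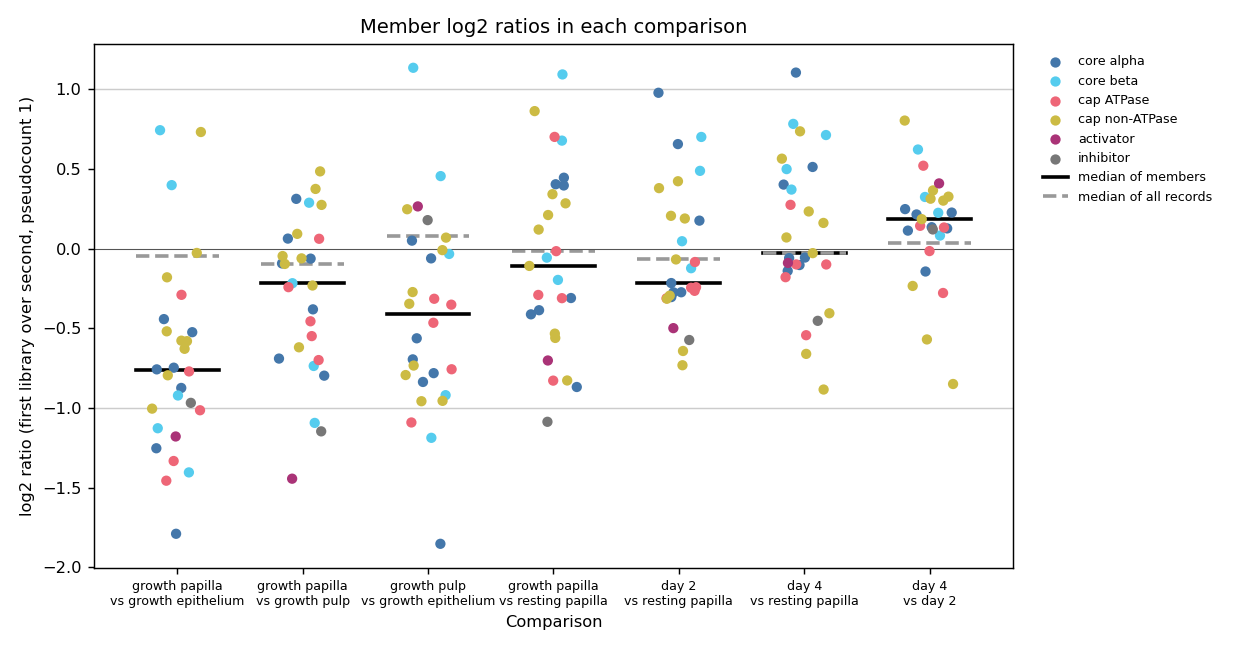
Log2 ratios (y axis, first library over second, TMM-scaled with a pseudocount of 1) of the members with at least 20 reads in either library, in each of the 7 comparisons (x axis). Dots are members coloured by component, black bars their median, grey dashed bars the median of all records and thin lines a 2-fold difference; the black bar lies furthest below the grey in growth papilla against epithelium, at -0.76 against -0.05.

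The growth and resting papilla libraries carry the same tissue label in different phases. The summed level did not differ beyond counting error, with a ratio of 0.980 (0.951 to 1.01). On library totals alone the growth papilla was 1.11-fold (1.08 to 1.15) lower. 1 of 27 members was at least 2-fold higher in the growth papilla, against 9.35% of 5957 records, and 1 was lower, against 7.97%. At 1.5-fold, 4 were higher (20.9%) and 5 lower (19.7%), and the median log2 ratio was -0.11 against -0.02 for all records. The members' counts thus lay near the shares of all records, but single subunits went in opposite directions.

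PSMB1 was 2.14-fold (1.92 to 2.40) higher in the growth papilla than at rest, the cap scaffold PSMD1 1.84-fold (1.5 to 2.25) and the ATPase PSMC2 1.65-fold (1.28 to 2.13) higher. PSMF1 was 2.17-fold (1.66 to 2.86) lower, the core alpha subunit PSMA2 1.83-fold (1.66 to 2.02), PSMC6 1.79-fold (1.48 to 2.18) and PSME3 1.63-fold (1.41 to 1.90) lower. PSMA2 measured 238 (epithelium), 228 (pulp), 175 (growth papilla), 319.8 (resting papilla), 264 (day 2) and 290.2 (day 4). PSMA2 was highest at rest under both scalings. On library totals alone this place lay within counting error of day 4, whose ratio to rest was 0.976 (0.899 to 1.06). PSMA2 was lowest in the growth papilla with TMM, but on library totals alone the epithelium was lowest, at 164 against 174 in the growth papilla. Within the core, summed beta reads were 1.43-fold (1.34 to 1.51) higher in the growth papilla and summed alpha reads 1.23-fold (1.16 to 1.30) lower. Single members did not all follow these sums. PSMA3, PSMA5 and PSMA6 were higher and PSMB2 and PSMB3 lower in the growth papilla, PSMA5 and PSMB2 within counting error. PSMA2 held 594 of 2379 alpha reads in the growth papilla and 1164 of 3127 at rest. The alpha sum without it was not computed. Beta records made up 51.1% (49.7 to 52.5) of core reads in the growth papilla and 37.4% (36.1 to 38.8) at rest. Without PSMB1, PSMB4 and PSMA6, chosen after their values were seen, these shares were 25.7% (24.1 to 27.4) and 22.7% (21.4 to 24.1). Smooth muscle markers were at 22904 in the growth papilla and 7032 at rest, and HBA1 at 98.0 and 11.8. Epithelial markers summed to 729 and 939. Among them CLDN1 (19.4 and 108), EVPL (5.30 and 99.2), CDH1 (24.4 and 68.4) and KRT15 (36.5 and 129) were lower in the growth papilla, while KRT14 (616 and 450) was higher. The part of these markers in the proteasome differences was not tested.

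Regeneration was followed from the resting papilla to the follicle at day 2 and day 4 after wounding. These libraries differ in tissue as well as time, since the first is a dissected papilla and the others are labelled as feather follicle. Epithelial markers were at 939 in the resting papilla, 1538 on day 2 and 1259.7 on day 4. Leukocyte markers were at 279, 593 and 545, and proliferation markers at 127, 96.9 and 210.2. Smooth muscle markers were at 7032, 2037 and 2259, and HBA1 at 11.8, 147 and 146. The resting papilla had the lowest epithelial and leukocyte sums and HBA1 level of these 3 libraries, and the highest smooth muscle sum. Single epithelial markers did not all follow their sum. KRT14 (450, 1051 and 623) and PERP (72.5, 174 and 238) were lowest at rest. CDH1 (68.4, 38.1 and 58.1), EVPL (99.2, 45.5 and 39.4) and GRHL3 (6.59, 5.17 and 6.35) were highest at rest. The part of such shifts in the results below was not tested.

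On day 2 the ratio of summed levels to rest was 0.998 (0.969 to 1.03) with TMM. With median-of-ratios factors it was 1.04 (1.01 to 1.07) and on library totals alone 1.03 (1.0 to 1.06), and both of these intervals left out 1. 0 of 27 members were 2-fold higher, against 7.03% of 6013 records, and 0 were 2-fold lower, against 6.00%. At 1.5-fold, 3 were higher (15.7%) and 2 lower (18.4%), with a median log2 ratio of -0.22 against -0.06 for all records. The 3 higher members were core subunits. PSMA6, a core alpha subunit, measured 184 (epithelium), 190.4 (pulp), 109 (growth papilla), 82.7 (resting papilla), 164 (day 2) and 179 (day 4). It was lowest at rest, and day 2 lay 1.98-fold (1.72 to 2.28) above it. PSMB4 was 1.63-fold (1.47 to 1.81) and the alpha subunit PSMA5 1.60-fold (1.19 to 2.16) higher on day 2, and PSMB1 followed at 1.41-fold (1.25 to 1.58). The members with the lowest ratios were PSMD6, 1.68-fold (1.34 to 2.11) lower, PSMD10, an assembly chaperone of the cap, 1.58-fold (1.23 to 2.03) lower, and PSMF1, 1.5-fold (1.19 to 1.90) lower. PSMF1 is not in the count at 1.5-fold, which uses levels plus 1. All 5 ATPases had ratios below 1, from 0.803 for PSMC6 to 0.943 for PSMC5, against 54.5% of records below 1, and their sum was 1.16-fold (1.08 to 1.25) lower. All 5 ratios stayed below 1 under the 4 scalings, but most lay within counting error. On library totals alone only PSMC6, at 0.831 (0.701 to 0.986), had an interval that left out 1. Those of PSMC1 (0.755 to 1.01), PSMC2 (0.645 to 1.16), PSMC3 (0.698 to 1.05) and PSMC5 (0.848 to 1.12) held 1.

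By day 4 the summed level was 1.14-fold (1.11 to 1.18) above rest, or 1.23-fold (1.20 to 1.27) on library totals alone. 1 of 27 members was 2-fold higher, against 8.23% of 6090 records, and 0 were lower, against 6.90%. At 1.5-fold, 4 were higher (18.5%) and 2 lower (18.7%). The median log2 ratio was -0.03 for members and for all records alike, while the sum, which weights members by their reads, was higher. PSMA6 was 2.16-fold (1.89 to 2.48), PSMB4 1.72-fold (1.56 to 1.91), PSMD1 1.68-fold (1.38 to 2.06) and PSMB1 1.64-fold (1.47 to 1.84) higher. PSMD5, a chaperone of cap assembly, was 1.88-fold (1.46 to 2.42) lower, PSMD9, another such chaperone with 43 and 28 reads, 1.66-fold (1.01 to 2.78) lower, and PSMC3 1.47-fold (1.19 to 1.82) lower. On library totals alone 7 members were 1.5-fold higher (22.6% of records) and 1 lower (15.1%). Between scalings 7 members of the 27 turned in direction, and the share of all records that turned was not computed.

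Day 4 was also set against day 2, the pair with the fewest records apart. 0 of 27 members were 2-fold higher, against 3.77% of 6048 records, or lower, against 3.84%. At 1.5-fold, 2 were higher (12.4%) and 1 lower (11.7%), but 21 had a ratio above 1 (52.7% of records) and 6 below 1 (47.3%). The median log2 ratio was 0.18 against 0.03, and the summed level was 1.15-fold (1.11 to 1.18) higher on day 4. PSMD10 was 1.77-fold (1.40 to 2.26), PSMB3 1.54-fold (1.39 to 1.71) and PSMC2 1.45-fold (1.10 to 1.92) higher on day 4. PSMD9 was 1.91-fold (1.18 to 3.16), PSMD5 1.5-fold (1.16 to 1.96) and PSMC3 1.22-fold (0.975 to 1.52) lower, the last within counting error. PSMD5 is not in the count at 1.5-fold, which uses levels plus 1. Of 7 core alpha records 6 were above 1, as were all 4 core beta records that passed 20 reads, 3 of 5 ATPases (PSMC5 turned between scalings) and 6 of 9 cap non-ATPases that passed.

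The make-up of proteasome reads within a library needs no scaling between libraries, although each share also depends on transcript lengths. Cap reads, here and in the ATPase share, include the assembly chaperones PSMD5, PSMD9 and PSMD10. These had 177, 43 and 169 of 3277 cap reads at rest, and 111, 37 and 108 of 2960 in the growth papilla. Shares without them were not computed. Core records held 60.4% (59.3 to 61.4) of core and cap reads in the resting papilla, 64.8% (63.8 to 65.8) on day 2 and 66.0% (65.1 to 66.9) on day 4. The share was 62.2% (61.1 to 63.3) in the growth papilla, 61.1% (60.3 to 61.9) in the epithelium and 66.3% (65.5 to 67.0) in the pulp. Both regeneration libraries thus lay above rest beyond counting error. The difference from rest was 4.42 percentage points on day 2 and 5.60 on day 4. Without PSMB1, PSMB4 and PSMA6, chosen after their values were seen, it was -0.14 and 1.95. These 3 are core records that were higher on both days than at rest, so leaving them out was bound to lower the difference.

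Beta records made up 37.4% (36.1 to 38.8) of core reads at rest, 43.3% (42.0 to 44.7) on day 2 and 45.8% (44.6 to 46.9) on day 4, and 38.8% (37.8 to 39.8) in the epithelium, 54.4% (53.5 to 55.3) in the pulp and 51.1% in the growth papilla. The epithelium and the resting papilla thus had the lowest beta shares with all members. Without PSMB1, PSMB4 and PSMA6 the order was pulp at 36.5%, epithelium at 29.7% (28.6 to 30.8) and day 4 at 29.3% (27.9 to 30.7). Growth papilla at 25.7% (24.1 to 27.4), day 2 at 24.0% (22.6 to 25.5) and rest at 22.7% (21.4 to 24.1) followed. The resting papilla kept the lowest value and the epithelium came after the pulp. Neither place was clear of counting error, since the intervals of rest and day 2 overlapped, as did those of epithelium and day 4. ATPases held 51.9% (50.6 to 53.2) of cap reads in the epithelium, 46.0% (44.7 to 47.3) in the pulp, 44.0% (42.3 to 45.7) at rest, 41.7% (39.9 to 43.5) on day 2, 39.9% (38.2 to 41.5) on day 4 and 38.3% (36.6 to 40.1) in the growth papilla. The intervals of neighbours in this order overlapped except between epithelium and pulp.

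**Figure D5:**
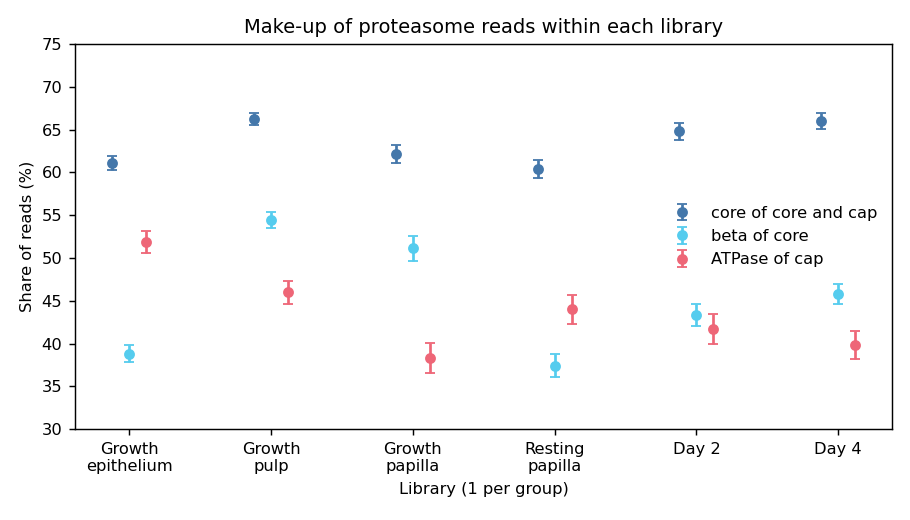
Percent of reads (y axis, from 30 to 75) held by core records among core and cap reads, by beta records among core reads and by ATPase records among cap reads, in each library (1 per group). Bars are exact 95% binomial intervals for counting error; the beta share is 37.4% in the resting papilla and 54.4% in the pulp, and the ATPase share is highest in the epithelium at 51.9%.

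Genes that act with the proteasome gave a list of 62 symbols, of which 40 were found outside the members. All values for this list are TMM-scaled and were not computed on library totals alone. Those against the epithelium thus rest on its TMM factor of 0.688. Counts past 2-fold use levels plus 1, so a gene with few reads can have a ratio of counts past 2 and not be counted. Between growth papilla and epithelium 9 of 36 tested were lower in the papilla by 2-fold or more, against 22.7% of records, and 3 higher, against 25.0%, with a median log2 ratio of -0.35. RPS27A, a ubiquitin and ribosomal fusion gene, was 6.49-fold (6.17 to 6.83) lower, the core assembly chaperone PSMG3 4.95-fold (3.53 to 7.10), the signalosome subunit COPS3 3.18-fold (2.40 to 4.27) and the ubiquitin chain ligase UBE4A 3.50-fold (1.73 to 7.82) lower. Between papilla and pulp 6 of 36 were higher, against 14.7% of records, and 0 lower, against 19.1%, with a median of 0.23. The signalosome subunit GPS1 was 3.48-fold (2.21 to 5.58), the conjugating enzyme UBE2A 3.29-fold (2.34 to 4.68), the cap-bound deubiquitinase USP14 2.69-fold (2.10 to 3.46) and the ligase scaffold CUL3 2.56-fold (1.97 to 3.32) higher in the papilla. The list's median thus lay above 0 in that pair, while the subunits' own median was -0.22.

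With TMM, 14 of 36 such genes were 2-fold lower in the pulp than in the epithelium, against 20.4% of records. 2 were higher, against 26.7%, and the median was -0.62. For the subunits, the summed ratio of this pair reversed on library totals alone, and the list was not checked that way. NSFL1C and UFD1L, cofactors of the unfoldase VCP, were 6.55-fold (4.64 to 9.46) and 4.01-fold (3.31 to 4.89) lower, RPS27A 4.89-fold (4.72 to 5.07), COPS3 5.12-fold (3.89 to 6.81) and GPS1 4.55-fold (3.0 to 7.10) lower. In the phase and regeneration pairs at most 1 of the 35 to 37 tested was 2-fold higher and at most 2 were 2-fold lower. Of all records, 3.77% to 9.35% were 2-fold higher in these pairs and 3.84% to 7.97% were 2-fold lower. Between growth and resting papilla CUL1 was 2.46-fold (1.89 to 3.21) and PSMG3 2.38-fold (1.64 to 3.52) lower, UBE2A 2.28-fold (1.60 to 3.28) higher and CUL3 1.94-fold (1.59 to 2.37) lower. On day 2 against rest UBQLN4, a ubiquitin shuttle with 7 and 22 reads, was 3.17-fold (1.31 to 8.79) lower, the chaperone-linked ligase STUB1 1.98-fold (1.47 to 2.69) higher, COPS4 1.96-fold (1.54 to 2.51) lower and VCP 1.85-fold (1.33 to 2.58) higher. On day 4 against rest CUL3 was 1.95-fold (1.62 to 2.36), COPS4 1.88-fold (1.49 to 2.39), the VCP cofactor NPLOC4 2.09-fold (1.06 to 4.31) and the ligase UBE3C 1.92-fold (1.29 to 2.91) lower. Between day 4 and day 2 UBQLN4 was 4.00-fold (1.72 to 10.8) higher, and STUB1, NPLOC4 and UBE2A were 1.92-fold (1.44 to 2.57), 2.07-fold (1.05 to 4.27) and 1.64-fold (1.16 to 2.31) lower.

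NFE2L1, which in mammals turns on proteasome genes, measured 16.5 RPM (epithelium), 31.3 (pulp), 43.5 (growth papilla), 30.2 (resting papilla), 24.5 (day 2) and 34.0 (day 4). It was lowest in the epithelium, where 18 of 28 members (17 of 27 without PSMB7) were highest with TMM and 4 of 28 on library totals alone. It was highest in the growth papilla, where the summed proteasome level was lowest but within counting error of day 2. Any link between the NFE2L1 transcript and proteasome levels was not tested. POMP, a chaperone that helps the core mature, measured 177 (epithelium), 70.2 (pulp), 135 (growth papilla), 117 (resting papilla), 98.8 (day 2) and 111 (day 4). Its lowest value was thus in the pulp.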

How the data were processed

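Total RNA of 6 chicken feather follicle libraries, 1 per group as labelled, was sequenced with standard Illumina protocols, per the labels. The authors deposited whole-number counts per RefSeq transcript record, with no value under 2. A further deposited column, headed TPM, was proportional to the count whatever the transcript and so holds RPM of a library total larger than the listed sum. Records of 500 counts or more gave this total back (3269377 to 6064788; listed counts were 40.0% to 44.5% of it). The records are chicken transcripts, yet the submitters' processing notes name mm10, a mouse build. The aligner, the counter and whether reads were counted by strand: not given in the sources used here. Of the 32 member genes, 9 overlap another protein-coding gene in the RefSeq table, so their reads could include those of a neighbour (PSMA1, PSMA6, PSMA7, PSMB7, PSMC2, PSMC3, PSMD1, PSMD14 and PSMF1).

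Trimmed mean of M values (TMM) factors over all records came from edgeR 4.0.16 (R 4.3.3). For log2 ratios, 1 was added to each scaled RPM as pseudocount, and a record entered where either library had 20 or more reads. A fold given for 1 gene divides its scaled counts, with an exact conditional binomial 95% interval. Python 3.11.15, numpy 2.4.6, scipy 1.17.1, pandas 2.3.3 and matplotlib 3.10.9 were used, and the procedure was tested on simulated counts.

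Members and gene lists were chosen with earlier results of these data known. Named were all ATPases, PSMB7 and selected cap and activator subunits, the 3 highest and 3 lowest ratios per comparison, members past 2-fold, and the 4 listed pathway genes with the largest ratios. PSMA5, PSMB1 on day 2, NFE2L1, POMP and the fifth pathway gene in pulp against epithelium were added after their values were seen. Alternatives were 3 other scalings, records summed per symbol, no minimum or 100 reads, pseudocounts of 0.1 and 5, core subunits alone and leaving out PSMB4. Leaving out PSMB7, or PSMB1, PSMB4 and PSMA6, was added after seeing the data. Gene coordinates of the RefSeq table served only to find the overlaps above, and promoter and protein sequences were not used here.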

Additional observations from a re-analysis of the deposited data

How the results depend on the processing

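Each group has 1 library, so none could be left out. No paired analysis was possible because each group has 1 library and the replicate numbers pair nothing. Summed log2 ratios depended on scaling and on which members entered, mostly by more than counting error. Growth papilla against epithelium went from -0.63 to -0.70 (upper-quartile), -0.0900 (totals alone), -0.57 (core alone) and -0.71 (without PSMB4, the member with the most reads). Papilla against pulp went from -0.38 to -0.33 without PSMB4. Pulp against epithelium went from -0.25 to -0.35 (upper-quartile), -0.17 (core) and -0.38 (without PSMB4), and reversed to 0.33 on totals alone. Growth against resting papilla went from -0.03 to 0.0238 (median-of-ratios), -0.15 (totals), 0.0610 (core) and -0.0915 (without PSMB4). Day 2 against rest went from -0.0028 to 0.0503 (median-of-ratios), 0.0465 (totals), 0.14 (core) and -0.0654 (without PSMB4). Day 4 against rest went from 0.19 to 0.30 (totals), 0.35 (core) and 0.14 (without PSMB4), and day 4 against day 2 from 0.20 to 0.25 (totals).

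On totals alone the member median moved to -0.24 in papilla against epithelium and reversed to 0.16 in pulp against epithelium. Counts past 2-fold in papilla against epithelium went from 9 to 3 and past 1.5-fold from 19 to 10 on totals alone. Past 2-fold, papilla against pulp went from 3 to 5 with no minimum, pulp against epithelium from 4 to 7 with upper-quartile factors, and growth against resting papilla from 2 to 1 on totals alone or with a pseudocount of 5. Day 2 against rest went from 0 to 1 with median-of-ratios factors, totals alone or no minimum. Past 1.5-fold it went from 5 to 9 with no minimum and 3 with a pseudocount of 5, and day 4 against day 2 from 3 to 6 with no minimum. The cause of these shifts was not tested. The difference in core share from rest, without PSMB1, PSMB4 and PSMA6, reversed to -0.14 points on day 2 and moved to 1.95 on day 4, and the difference in beta share of core reads from rest went from 13.7 to 2.99 points in the growth papilla, 5.94 to 1.28 on day 2 and 8.35 to 6.56 on day 4. Leaving out PSMB7 moved the medians against the epithelium to -0.76 (papilla) and -0.35 (pulp). Both alternatives were chosen after seeing the data. Members with under 20 reads allow no statement at this depth.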

Other observations

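The genes PSMB1 and PSMB2, and PSMA6 and PSMA7, paired as core subunits and chosen after their values were seen, had read ratios that differed widely between libraries and that need no scaling. PSMB1 had 1.27 (1.14 to 1.43) reads per PSMB2 read in the epithelium, 2.57 (2.16 to 3.06) in the resting papilla, 3.25 (2.82 to 3.75) on day 4, 3.49 (2.97 to 4.12) on day 2, 4.02 (3.56 to 4.55) in the pulp and 5.72 (4.85 to 6.79) in the growth papilla. The proteins of both genes sit in the same ring of the core. PSMA6 had 0.700 (0.637 to 0.768) reads per PSMA7 read in the epithelium, 0.822 (0.704 to 0.961) in the resting papilla, 1.45 (1.23 to 1.71) in the growth papilla, 1.86 (1.64 to 2.11) on day 4, 1.97 (1.72 to 2.27) on day 2 and 2.64 (2.36 to 2.96) in the pulp. In both pairs the epithelium had the lowest ratio and the resting papilla the next, with overlapping intervals for PSMA6 and PSMA7. Since the pairs were picked from these values, their shared order is not a separate finding. Each ratio also depends on transcript lengths, which do not differ between libraries for the same record. PSMA6 and PSMA7 each overlap another gene in the RefSeq table, while PSMB1 does not.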
